A study of Mus musculus with 6 samples.

Results

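The genes described here were 38 genes of macrophages, dendritic cells, neutrophils and monocytes, listed by name with earlier results of these data known. Each of the 38 listed genes had a row with its symbol in the deposited table, out of 61880 rows in all. Rows that shared an assembled locus were added together, since the assembly can divide the reads of a gene between a row with a symbol and rows without one. This gave 38 loci for the listed genes out of 53912 loci, of which 30 consisted of 1 row and 8 held further rows.

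The RNA came from epithelial cells that were isolated out of inguinal mammary glands of pubertal female FVB/NJ mice, 6 to 8 weeks old, and was sequenced in bulk. There were 3 pooled samples from *fat-1* mice and 3 pooled samples from WT mice, and mice of both genotypes were kept for life, as their parents were, on a modified AIN93G diet with 10% fat by weight from safflower oil, or 22% of energy. *Fat-1* mice carry a desaturase gene of *Caenorhabditis elegans*, a roundworm, with which their own tissues turn *n*-6 into *n*-3 fatty acids, and the comparison asks how lifelong *n*-3 exposure relates to RNA levels in these isolates. Each sample combined cells of several mice, the glands had their lymph nodes removed before an enzymatic digestion, and no step selected leukocytes or removed them by a surface marker, as far as the methods say. Genotype was taken from the labels and was not checked against the transgene, which is not a mouse gene, so the direction of every difference rests on the labels. Because the samples are pools, *p*-values measure the spread between pools.

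Mononuclear phagocytes are cells of the bone marrow and fetal lineages that engulf dying cells and debris, and in the mammary gland macrophages line the ducts and surround the terminal end buds during puberty. Macrophages are recognised by receptors for colony-stimulating factor 1, for the constant part of IgG and for modified lipids and sugars, and by complement component C1q. Dendritic cells carry antigen to lymph nodes and depend on the FLT3 receptor, and neutrophils carry large stores of the calcium-binding proteins S100A8 and S100A9. Many of these genes are controlled by the transcription factor PU.1, encoded by *Spi1*, which binds a purine-rich element called the PU box.

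Promoters of 5 listed genes that hold a PU box are shown. They come from C1q, the NADPH oxidase, the neutrophil proteins and the cytokine receptor beta chains, groups on which the results below turn. Each runs from 250 bases before to 50 bases after the RefSeq start on GRCm38.p6, written in the direction of the gene, and capitals mark the PU box GAGGAA or its longer form GAGGAAGT, which contains it, on either strand.
C1qb (chr4:136886151-136886450, minus strand): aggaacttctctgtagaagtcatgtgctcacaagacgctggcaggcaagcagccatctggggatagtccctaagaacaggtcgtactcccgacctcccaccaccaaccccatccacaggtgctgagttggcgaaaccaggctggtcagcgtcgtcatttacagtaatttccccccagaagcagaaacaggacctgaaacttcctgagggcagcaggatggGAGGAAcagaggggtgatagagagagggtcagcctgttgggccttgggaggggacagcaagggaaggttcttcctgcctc
C1qc (chr4:136892865-136893164, minus strand): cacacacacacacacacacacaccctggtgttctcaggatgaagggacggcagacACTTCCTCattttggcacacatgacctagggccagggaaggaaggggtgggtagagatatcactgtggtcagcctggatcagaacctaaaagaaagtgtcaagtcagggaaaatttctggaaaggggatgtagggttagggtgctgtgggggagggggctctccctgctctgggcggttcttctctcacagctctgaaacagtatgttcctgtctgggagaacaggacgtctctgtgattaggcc
Cybb (chrX:9469275-9469574, minus strand): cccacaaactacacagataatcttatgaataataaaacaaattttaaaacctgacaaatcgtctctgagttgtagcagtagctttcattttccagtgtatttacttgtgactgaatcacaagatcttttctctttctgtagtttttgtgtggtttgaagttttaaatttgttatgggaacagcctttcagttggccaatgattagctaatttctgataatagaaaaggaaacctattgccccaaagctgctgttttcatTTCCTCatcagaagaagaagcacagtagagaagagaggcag
S100a8 (chr3:90668821-90669120, plus strand): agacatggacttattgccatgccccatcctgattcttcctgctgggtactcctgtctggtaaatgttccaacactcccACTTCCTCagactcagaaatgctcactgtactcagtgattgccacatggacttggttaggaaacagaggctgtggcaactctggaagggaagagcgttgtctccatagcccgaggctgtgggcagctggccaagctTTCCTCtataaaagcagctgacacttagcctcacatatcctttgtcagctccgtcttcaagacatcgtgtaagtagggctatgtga
Csf2rb2 (chr15:78305672-78305971, minus strand): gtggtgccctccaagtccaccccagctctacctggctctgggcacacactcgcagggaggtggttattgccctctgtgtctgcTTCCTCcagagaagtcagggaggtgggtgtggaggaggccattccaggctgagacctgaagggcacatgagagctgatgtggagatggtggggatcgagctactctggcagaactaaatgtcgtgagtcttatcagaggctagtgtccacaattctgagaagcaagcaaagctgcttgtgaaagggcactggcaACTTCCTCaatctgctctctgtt
A promoter was matched by symbol for 30 of the 38 genes, all but *Adgre1*, *C1qa*, *Clec10a*, *Csf1r*, *Csf2rb*, *Sirpa*, *Spi1* and *Tyrobp*. The shorter PU box was present in 17 of these 30 genes (56.7%), and in 31.3% of the 27025 genes with a promoter of this length. The longer form was present in 5 of 30 (16.7%) and in 3.69% of all genes. Promoters with 0 matches, which are not shown, include those of *Ncf1* and *S100a9* in the same groups and those of *Irf8*. A match describes letters in this window and is not a bound site.

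Library totals lay between 204539059 and 232148824 counts. Levels are given as CPM, that is, counts scaled to library size with TMM factors, on which 1 count is worth 0.00441 to 0.00486 CPM, and they are listed in the order of samples 1, 2 and 3 of each genotype. The 6 isolates were not alike in their makeup. The summed level of 9 luminal epithelial genes was 3136, 756 and 1362 CPM for *fat-1* and 2595, 1573 and 801 CPM for WT, and 7 fibroblast genes, which should be low in an epithelial isolate, summed to between 1551 and 5618 CPM. For 8 B cell genes the sums were 309.6, 709 and 662 CPM for *fat-1* and 302, 352 and 773 CPM for WT. For 5 lymph node stroma genes the sums were 47.1, 151 and 140.3 CPM in *fat-1* and 30.2, 35.4 and 121 CPM in WT. *Fat-1* samples 2 and 3 and WT sample 3 thus had the highest sums of B cell and lymph node stroma genes and the lowest luminal sums, across both genotypes. The split was less sharp for *fat-1* sample 3, whose luminal sum lay near that of WT sample 2. Its sum of 8 basal genes (246 CPM) was above that of WT sample 2 (195 CPM). Its sum of 10 T and NK cell genes was 148 CPM, beside 127 CPM in WT sample 2 and 239 CPM in *fat-1* sample 2.

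The 38 genes together amounted to 378, 864 and 746 CPM for *fat-1* and to 458, 541 and 847 CPM for WT. The mean was 663 ± 253 CPM (SD, n = 3) in *fat-1* and 615 ± 205 CPM (SD, n = 3) in WT, a difference of 47.5 CPM that was smaller than the spread within either genotype. *Fat-1* sample 2, WT sample 3 and *fat-1* sample 3 had the highest sums, in that order, and *fat-1* sample 1 the lowest. For 22 of the 38 genes the highest 3 levels were those of the same 3 samples, and for 26 genes *fat-1* sample 1 was the lowest. In bulk RNA, fewer cells of a type and less RNA per cell cannot be told apart. The B cell and lymph node stroma sums were highest, and the luminal sum lowest, in the same 3 samples that had the highest sums of the 38 genes, and their part in it was not tested. Each gene of these 3 lists was above 0 in every sample.

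With edgeR's quasi-likelihood test and Benjamini–Hochberg adjustment over 24061 loci, 0% of loci passed an adjusted *p* of 0.05, and 0 of the 37 loci of the listed genes that could be tested did. *Cd68* was left out of this count because its locus also takes in *Eif4a1* and other genes. At an unadjusted *p* of 0.05, 274 loci (1.14%) passed, and again 0 of the 37. The log2 fold change (*fat-1* over WT) was above 0 for 21 of the 37 and below 0 for 16, with a median of 0.025 beside 0.0018 for all loci tested and a range from -0.49 to 0.53. For 33 of the 37 it was smaller than its standard error, whose median was 0.38, so differences of that order were not detectable with 3 pools per genotype. The median rested on single samples, since it was 0.30 without *fat-1* sample 1 (31 of 37 above 0) and -0.20 without *fat-1* sample 2 (6 of 37 above 0). It was 0.26 without WT sample 3, and -0.040, -0.078 and -0.044 without *fat-1* sample 3, WT sample 1 and WT sample 2, so its sign differed with the samples included.

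**Figure D1:**
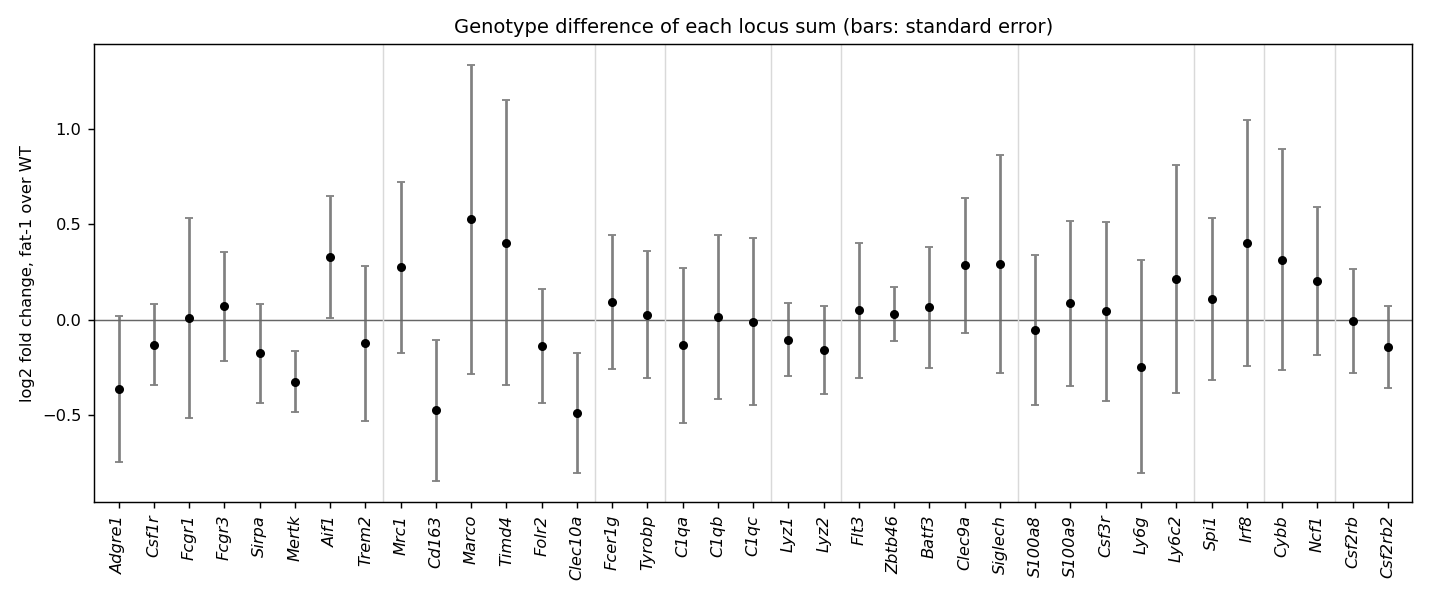
Log2 fold change of *fat-1* over WT for the loci of 37 myeloid genes (points) with the standard error from edgeR (bars), in the order of their roles. The values lie between -0.49 and 0.53, and 33 of the 37 bars cross 0.

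Receptors of mononuclear phagocytes were present at low levels, and no difference between the genotypes passed the test. *Csf1r*, the receptor for CSF1 and interleukin 34, stood at 4.89, 6.83 and 7.12 CPM for *fat-1* and at 5.44, 7.46 and 7.76 CPM for WT. The ranges overlapped, and the log2 fold change was -0.13 (SE 0.21). Of its exon bases, 15.1% lie opposite *Hmgxb3*. *Adgre1*, which encodes the macrophage surface protein F4/80, was at 1.45, 2.46 and 2.84 CPM in *fat-1* and at 1.72, 4.04 and 2.92 CPM in WT (log2 fold change -0.36, SE 0.38). Sample 1 was the lowest of its genotype for both genes.

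*Fcgr1* encodes the high-affinity IgG receptor, and its level was 1.30, 5.06 and 5.56 CPM for *fat-1* against 2.87, 4.24 and 4.74 CPM for WT. It spanned a 4.28-fold range, with *fat-1* sample 1 far below the rest, while the genotype difference was 0.0084 on the log2 scale (SE 0.52). *Fcgr3*, a low-affinity IgG receptor, reached 2.996, 5.42 and 4.43 CPM and 3.49, 3.40 and 5.36 CPM, a log2 fold change of 0.069 (SE 0.29). For *Fcgr3* 2.70% of the 100-base windows of its transcript also occur in *Fcgr2b*, so reads there could fall to either gene.

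*Mertk*, a receptor tyrosine kinase for the clearance of dying cells, was at 13.5, 12.9 and 13.1 CPM for *fat-1* and at 15.7, 20.2 and 13.8 CPM for WT. It was the only listed gene whose locus level did not overlap between the genotypes, beside 4.15% of all loci tested. The log2 fold change was -0.33 (SE 0.16) with an unadjusted *p* = 0.0844 and an adjusted *p* of 1.00 by edgeR, and the gap between the lowest WT and the highest *fat-1* level was small beside the spread of the WT samples. Without WT sample 3 the unadjusted edgeR *p* was 0.0302, with a log2 fold change of -0.43. *Mertk* was highest in WT samples 2 and 1, unlike most of the listed genes.

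*Trem2*, a lipid-binding receptor that signals through TYROBP, was near the lower end of what was measured, at 0.346, 0.121 and 0.226 CPM in *fat-1* and 0.290, 0.194 and 0.272 CPM in WT. It was highest in *fat-1* sample 1, in contrast to most of the listed genes, and its log2 fold change was -0.12 (SE 0.41). *Sirpa*, which binds CD47 and is not limited to leukocytes, ranged from 29.1 to 60.6 CPM and was highest in WT sample 2. *Cd68*, a lysosomal glycoprotein of macrophages, ranged from 1.996 to 5.25 CPM in its own row, which is the value used in the sums. That row held 411 to 1187 counts, while a row without a symbol in the same locus held 88963 to 136098. Whether the latter includes reads of *Cd68* is not known, so its level could be understated. *Aif1*, an actin-binding protein of macrophages, ranged from 0.598 to 1.25 CPM. No difference of these 3 genes passed the test.

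Receptors of resident tissue macrophages summed to 6.65, 14.3 and 14.9 CPM for *fat-1* and to 6.98, 8.40 and 17.0 CPM for WT. *Mrc1*, the mannose receptor, was at 1.24, 3.88 and 2.38 CPM for *fat-1* against 1.51, 1.84 and 2.86 CPM (log2 fold change 0.27, SE 0.45). *Cd163*, which takes up haemoglobin bound to haptoglobin, was at 0.398, 0.750 and 0.563 CPM against 0.477, 0.848 and 1.06 CPM (log2 fold change -0.48, SE 0.37). These genes therefore differed in direction, and each difference was within about the spread of its samples.

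*Folr2*, the folate receptor beta of resident macrophages, was at 1.88, 2.41 and 3.97 CPM for *fat-1* and at 2.55, 3.17 and 3.37 CPM for WT, and its log2 fold change was -0.14 (SE 0.30). Of its exon bases, 63.1% also lie in the antisense gene *Gm10602*, and without knowledge of strand the reads cannot be divided between them. The widest range of all listed genes was that of the scavenger receptor *Marco*, from 0.556 to 4.85 CPM (8.73-fold), followed by the phosphatidylserine receptor *Timd4* from 0.734 to 3.64 CPM (4.96-fold). Both were far higher in WT sample 3 than in the other WT samples, and the genotype differences were 0.53 (SE 0.81) and 0.40 (SE 0.75) on the log2 scale. Without WT sample 3 the *Marco* value was 2.08 with an unadjusted edgeR *p* of 0.00429 and an adjusted *p* of 1.00. *Clec10a*, a galactose-binding lectin of macrophages and dendritic cells, ranged from 0.465 to 1.22 CPM, with the lowest of the 37 log2 fold changes at -0.49 (SE 0.32), and 2.99% of its 100-base windows also occur in *Mgl2*. Its unadjusted edgeR *p* was 0.0478 without *fat-1* sample 3, with a log2 fold change of -0.79.

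**Figure D2:**
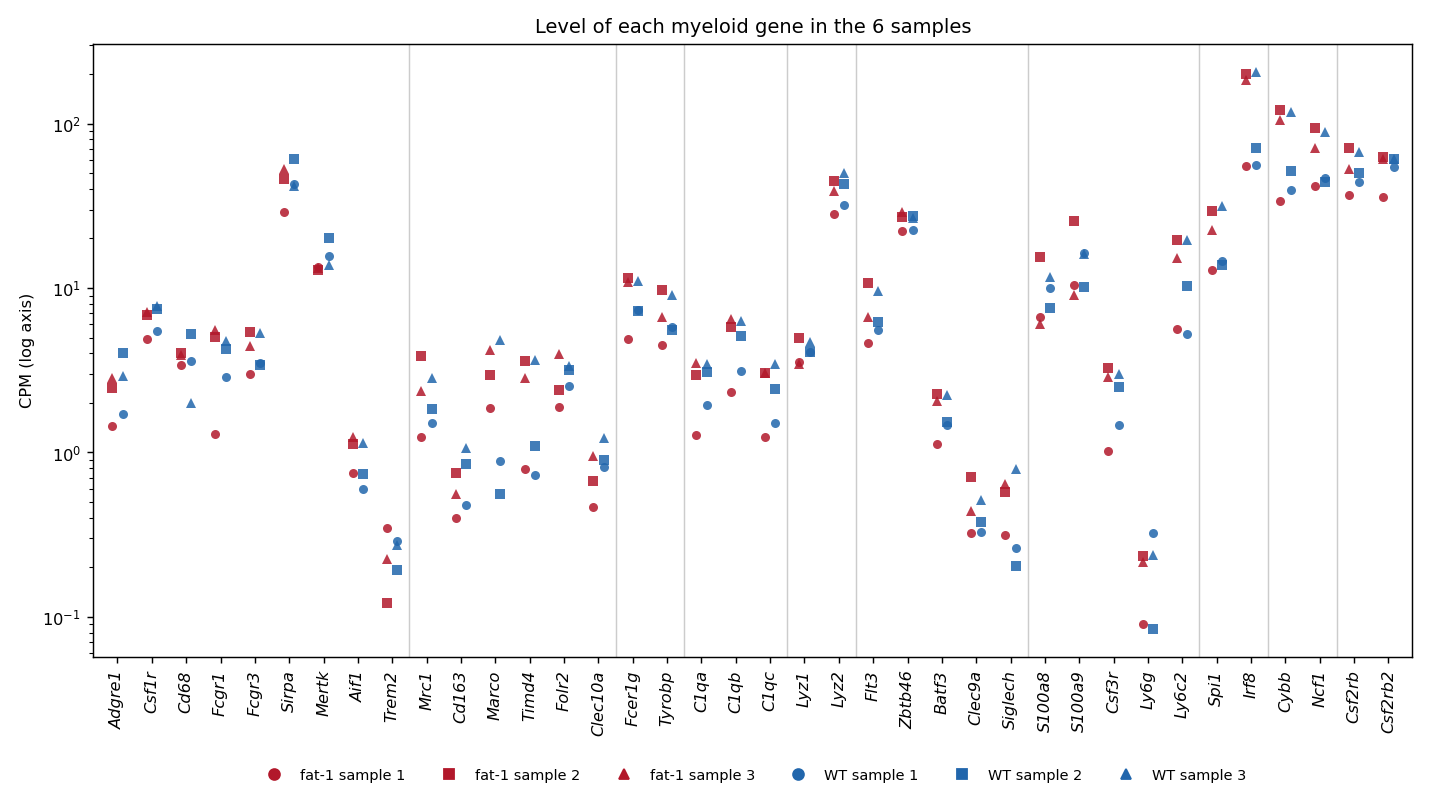
Level of each of the 38 myeloid genes in CPM (log axis) in the 3 *fat-1* samples (red) and the 3 WT samples (blue), with 1 point per sample and the sample number given by the shape. *Irf8* spans 55.5 to 206 CPM with *fat-1* and WT samples at both ends, while *Zbtb46* stays between 22.1 and 29.0 CPM.

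The ITAM adaptors FCER1G and TYROBP carry the signal of receptors that lack a signalling tail, among them TREM2 described above. *Fcer1g* was at 4.91, 11.6 and 10.8 CPM for *fat-1* and at 7.36, 7.24 and 11.01 CPM for WT. *Tyrobp* was at 4.48, 9.68 and 6.63 CPM and at 5.76, 5.54 and 9.13 CPM. Both were lowest in *fat-1* sample 1 and highest in *fat-1* sample 2, and the log2 fold changes were 0.092 (SE 0.35) and 0.025 (SE 0.33). Per kilobase of annotated exons, the ratio of *Fcer1g* to *Tyrobp* lay between 0.838 and 1.25.

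The C1q molecule is assembled from A, B and C chains, whose genes lie side by side on chromosome 4, *C1qb* at chr4:136880129-136886187, *C1qc* at chr4:136889804-136893065 and *C1qa* at chr4:136895917-136898803. *C1qa* was at 1.28, 2.96 and 3.49 CPM in *fat-1* and at 1.94, 3.07 and 3.47 CPM in WT. *C1qb* was at 2.33, 5.79 and 6.48 CPM in *fat-1* and at 3.12, 5.10 and 6.26 CPM in WT. *C1qc* was at 1.25, 3.06 and 3.03 CPM in *fat-1* and at 1.51, 2.43 and 3.47 CPM in WT. All 3 were lowest in *fat-1* sample 1 and next lowest in WT sample 1, and the log2 fold changes were -0.14 (SE 0.41), 0.012 (SE 0.43) and -0.012 (SE 0.44). The chains kept similar proportions although the level of each varied 2.73- to 2.78-fold between samples. Per kilobase of merged exons, the level of *C1qa* was 1.79 to 2.39 times that of *C1qc*. The level of *C1qb* was 3.20 to 3.798 times that of *C1qc*, and the genotypes overlapped for both ratios. The size of these ratios depends on the length used. *C1qc* has 1931 merged exon bases but 1104 distinct 100-base windows in its coding transcripts, beside 1040 and 941 for *C1qa* and 1088 and 989 for *C1qb*.

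The lysozyme genes, which encode an enzyme that cuts bacterial cell walls, lie next to each other on chromosome 10 and were present at unequal levels. *Lyz2*, the form of macrophages and neutrophils, was at 28.0, 44.7 and 38.7 CPM in *fat-1* and at 31.9, 42.8 and 49.8 CPM in WT. *Lyz1* was at 3.55, 4.99 and 3.44 CPM and at 4.09, 4.10 and 4.69 CPM. The log2 fold changes were -0.16 (SE 0.23) for *Lyz2* and -0.10 (SE 0.19) for *Lyz1*. About 2.06% of the 100-base windows of *Lyz1* also occur in *Lyz2*. Per kilobase *Lyz2* was 7.48 to 10.8 times as high as *Lyz1*. At 29.9 CPM per kilobase of merged exons *Lyz2* had the highest mean level of the listed genes, but this rank depends on the length used. *Irf8*, with the highest mean CPM, has 7055 merged exon bases but only 3431 distinct 100-base windows in its coding transcripts. For *Lyz2* these were 1316 bases and 1217 windows.

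Among the dendritic cell genes, *Flt3*, the receptor for FLT3 ligand, was at 4.66, 10.8 and 6.64 CPM for *fat-1* and at 5.56, 6.19 and 9.59 CPM for WT. *Clec9a*, a receptor for dead cells on cross-presenting dendritic cells, was at 0.322, 0.708 and 0.442 CPM and at 0.327, 0.375 and 0.511 CPM. *Fat-1* sample 2 and WT sample 3 were highest for both. Their log2 fold changes were 0.048 (SE 0.36) and 0.28 (SE 0.35), and 5.59% of the exon bases of *Clec9a* are shared with *Clec1b*. *Siglech*, a lectin of plasmacytoid dendritic cells, was at 0.313, 0.578 and 0.644 CPM and at 0.262, 0.203 and 0.798 CPM (log2 fold change 0.29, SE 0.57). Without WT sample 3 the *Siglech* value was 1.15 (unadjusted *p* = 0.0346 by edgeR, adjusted *p* = 1.00). *Batf3*, a transcription factor of cross-presenting dendritic cells, ranged from 1.12 to 2.26 CPM.

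*Zbtb46*, a transcription factor of classical dendritic cells that is also made by endothelial cells, varied little between samples, whereas the other 4 dendritic cell genes varied 2.02- to 3.93-fold. It was at 22.1, 26.8 and 29.0 CPM in *fat-1* and at 22.7, 27.3 and 26.5 CPM in WT, which was the narrowest range of the 38 genes at 1.31-fold. The log2 fold change was 0.027 (SE 0.14), with the smallest standard error of the 37. By comparison *Clec9a* did not exceed 0.708 CPM in any sample. Endothelial genes summed to between 182 and 247 CPM over 5 genes, a 1.35-fold range, and their part in the level of *Zbtb46* was not tested.

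The neutrophil proteins S100A8 and S100A9 form the heterodimer calprotectin, and their genes lie near each other on chromosome 3 (chr3:90668978-90670035 and chr3:90692632-90695721). *S100a8* was at 6.65, 15.5 and 6.06 CPM in *fat-1* and at 9.97, 7.54 and 11.7 CPM in WT. *S100a9* was at 10.4, 25.6 and 9.09 CPM and at 16.2, 10.1 and 16.2 CPM. *Fat-1* sample 2 was clearly the highest for both, and *fat-1* sample 3, which was high for most listed genes, was the lowest. The log2 fold changes were -0.054 (SE 0.39) for *S100a8* and 0.085 (SE 0.43) for *S100a9*. Without *fat-1* sample 2 the *S100a8* value was -0.62, with an unadjusted edgeR *p* of 0.0375 and an adjusted *p* of 1.00. Per kilobase of merged exons *S100a9* was 1.78 to 2.20 times as high as *S100a8* in all 6 samples, and the size of this ratio depends on the length used. *S100a8* has 694 merged exon bases but 387 distinct 100-base windows in its coding transcripts, beside 522 and 466 for *S100a9*.

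*Csf3r*, the receptor for the neutrophil growth factor CSF3, was at 1.01, 3.25 and 2.88 CPM in *fat-1* and at 1.47, 2.50 and 2.98 CPM in WT, a log2 fold change of 0.042 (SE 0.47). *Ly6g*, which defines mouse neutrophils, was near the limit of measurement at 0.0901, 0.233 and 0.216 CPM in *fat-1* and 0.323, 0.0839 and 0.238 CPM in WT, which corresponds to between 19 and 69 counts. *Csf3r* was lowest in sample 1 of each genotype, as were the C1q genes, whereas *Ly6g* was highest in WT sample 1, and its log2 fold change was -0.25 (SE 0.56). *Ly6c2*, a marker of inflammatory monocytes that is also found on T cells and endothelium, ranged from 5.22 to 19.7 CPM, and 14.9% of its 100-base windows also occur in *Ly6c1*. Together the 5 neutrophil and monocyte genes summed to 23.8, 64.2 and 33.6 CPM in *fat-1* and to 33.2, 30.5 and 50.7 CPM in WT.

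*Irf8*, *Cybb* and *Ncf1* had the highest mean CPM of the listed genes and overlapped between the genotypes. *Irf8*, a transcription factor of monocytes and dendritic cells that B cells also use, was at 55.5, 200.04 and 184 CPM for *fat-1* and at 56.2, 70.5 and 206 CPM for WT. *Spi1*, which encodes PU.1 and is likewise made in B cells, was at 12.9, 29.3 and 22.5 CPM and at 14.6, 13.7 and 31.7 CPM. Each was high in *fat-1* samples 2 and 3 and WT sample 3 and low in the other 3 samples. The log2 fold changes were 0.40 (SE 0.65) for *Irf8* and 0.11 (SE 0.43) for *Spi1*. The *Irf8* value rested on single samples, from 0.082 without WT sample 1 to 1.22 without WT sample 3 (unadjusted *p* = 0.0795 by edgeR). *Irf8* relative to *Csf1r* was 7.73 to 24.0 per kilobase, so these genes did not keep a fixed proportion across the samples.

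*Cybb* encodes the membrane subunit gp91phox of the NADPH oxidase, which makes superoxide for killing microbes, and its level was 33.6, 121 and 105 CPM in *fat-1* and 39.4, 51.2 and 118 CPM in WT. *Ncf1*, the p47phox subunit of the same enzyme, was at 41.5, 94.4 and 70.6 CPM and at 46.3, 43.9 and 89.4 CPM. Both had the same 3 highest samples as *Irf8*. The log2 fold changes were 0.31 (SE 0.58) and 0.20 (SE 0.39). Of the exon bases of *Ncf1*, 11.1% lie opposite *Gtf2ird2*. *Irf8*, *Cybb* and *Ncf1* together made up 30.6% to 48.8% of the summed CPM of the 38 genes. Without *Irf8*, *Spi1*, *Cybb* and *Ncf1*, the other 34 genes summed to 235, 420.0 and 365 CPM in *fat-1*. In WT they summed to 301, 362 and 402 CPM. The mean was then lower in *fat-1*, at 340 ± 95.0 CPM (SD, n = 3) beside 355 ± 50.9 CPM (SD, n = 3) in WT. The highest-to-lowest range was 1.79-fold in place of 2.28-fold. The genes left out were high in the 3 samples with the highest sums, so a narrower range follows from leaving them out.

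**Figure D3:**
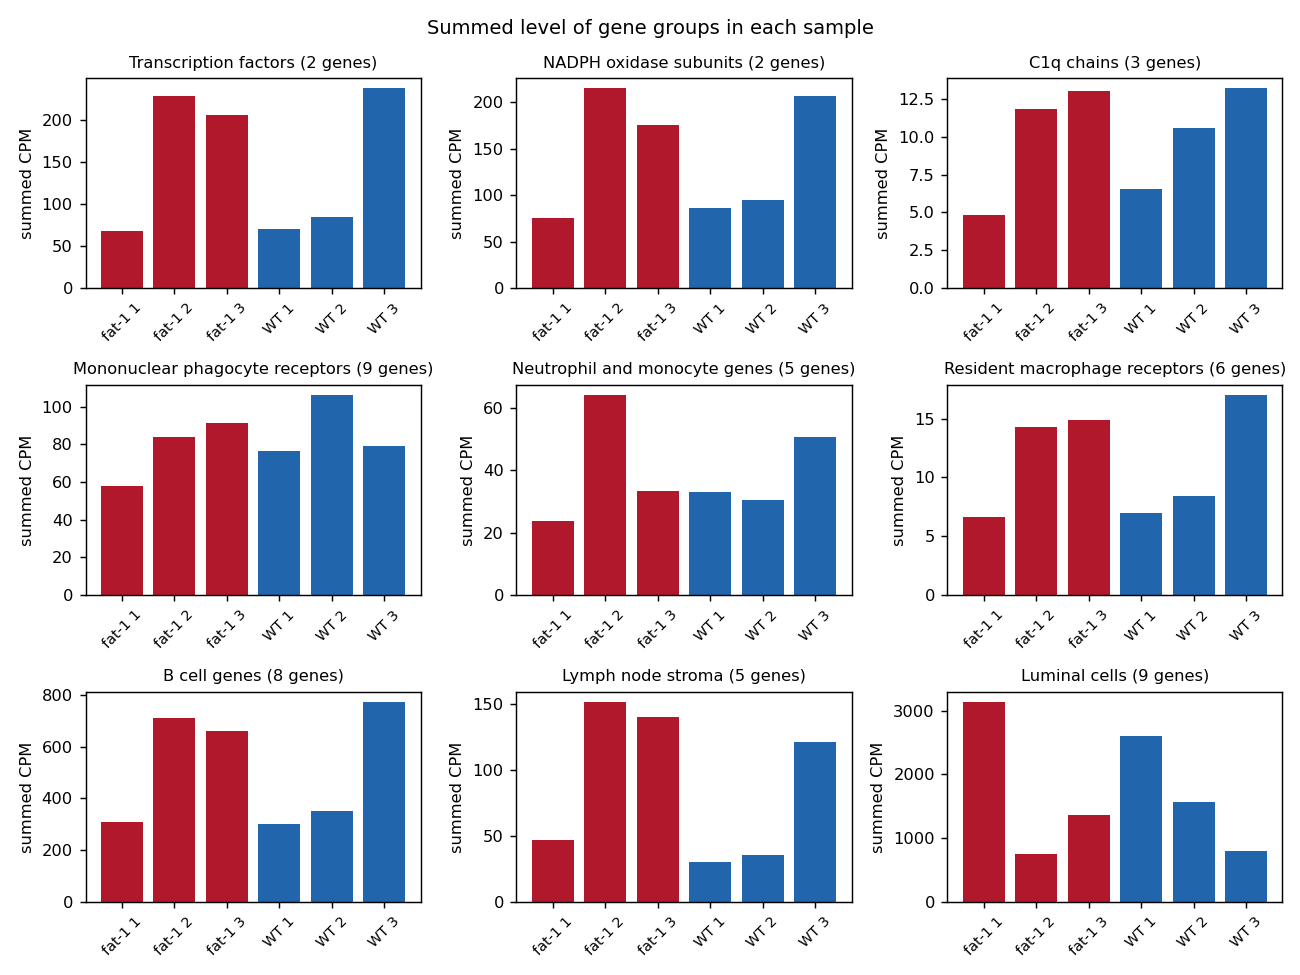
Summed CPM in each of the 6 samples for role groups of the listed genes and, for comparison, for B cell, lymph node stroma and luminal cell genes, with *fat-1* in red and WT in blue (each panel has its own axis starting at 0). The transcription factor and NADPH oxidase panels show *fat-1* samples 2 and 3 and WT sample 3 high, as in the B cell and lymph node stroma panels. The luminal panel shows those 3 samples lowest, with *fat-1* sample 3 near WT sample 2.

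The genes *Csf2rb* and *Csf2rb2* encode the common beta chain of the receptors for CSF2, interleukin 3 and interleukin 5 and its mouse-specific relative for interleukin 3, and they lie near each other on chromosome 15 (chr15:78325752-78353847 and chr15:78282507-78305721). The locus of *Csf2rb* was at 36.6, 71.2 and 52.6 CPM in *fat-1* and at 43.8, 50.2 and 67.1 CPM in WT. That of *Csf2rb2* was at 35.8, 62.5 and 60.7 CPM and at 54.7, 60.5 and 60.5 CPM. Neither locus differed by genotype beyond its spread, with log2 fold changes of -0.0064 (SE 0.27) and -0.14 (SE 0.22). Of the 100-base windows, 6.46% of *Csf2rb* and 7.05% of *Csf2rb2* occur in the other gene.

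Within the *Csf2rb2* locus, however, the row that carries the symbol and the row without a symbol divided the counts differently. The row with the symbol held 927, 5237 and 2942 counts for *fat-1* and 199, 775 and 244 counts for WT, and the other row held 6606, 8177 and 9643 counts and 11475, 12875 and 12166 counts, the few remaining counts being in a microRNA row. The share of the locus in the row with the symbol was 24.9% ± 13.4 (SD, n = 3) in *fat-1* and 3.11% ± 2.21 (SD, n = 3) in WT, without overlap (two-sided exact permutation *p* = 0.1, the smallest that 3 against 3 allows). For the row itself, the log2 fold change was 2.95 (SE 0.80) with an unadjusted *p* = 0.0107 and an adjusted *p* of 1.00 by edgeR's quasi-likelihood test over 30683 rows. It was the only listed gene of 38 at the unadjusted threshold, which 2.21% of all rows tested passed, while 0% passed the adjusted one. With edgeR's exact test the adjusted *p* of this row was 0.274, and with DESeq2's Wald test it was 0.0360, so the call depends on the test. Leaving out each sample in turn moved the log2 fold change between 2.33, when *fat-1* sample 2 was dropped, and 3.76, when WT sample 2 was, with unadjusted edgeR *p* from 0.00393 to 0.0401 and adjusted *p* of 1.00. The row without the symbol had a log2 fold change of -0.55 (SE 0.17, unadjusted *p* = 0.0197 by edgeR).

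Rows were also divided in other loci. *S100a9* had counts of 0, 5487 and 0 for *fat-1* and of 3468, 2044 and 3210 for WT under its symbol, while a row without one held 2192, 0 and 1891 counts and 0, 243 and 119 counts. In *fat-1* samples 1 and 3 the whole locus was therefore counted in the unnamed row, and the row gave a log2 fold change of -0.67 (SE 2.32) where the locus gave 0.085. Without *fat-1* sample 2 the symbol row of *S100a9* was at 0 in both remaining *fat-1* samples, and the difference then had an unadjusted *p* = 6.91e-05 and an adjusted *p* = 0.281 by edgeR. For *Fcgr3* the row held 42.6% and 77.0% of the locus in WT samples 1 and 2 and 100% in the other 4 samples, so the row value was 0.44 (SE 0.50) beside 0.069 for the locus. Without WT sample 3 the *Fcgr3* row was at 1.06 (unadjusted *p* = 0.0440 by edgeR, adjusted *p* = 1.00). For *Csf2rb* the row value was -0.34 (SE 0.44) beside -0.0064, and without *fat-1* sample 2 it was -0.94 (unadjusted *p* = 0.0188 by edgeR, adjusted *p* = 1.00). Groups did not overlap for 2 of the 38 rows, those of *Mertk* and *Csf2rb2*, beside 5.26% of all rows tested.

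**Figure D4:**
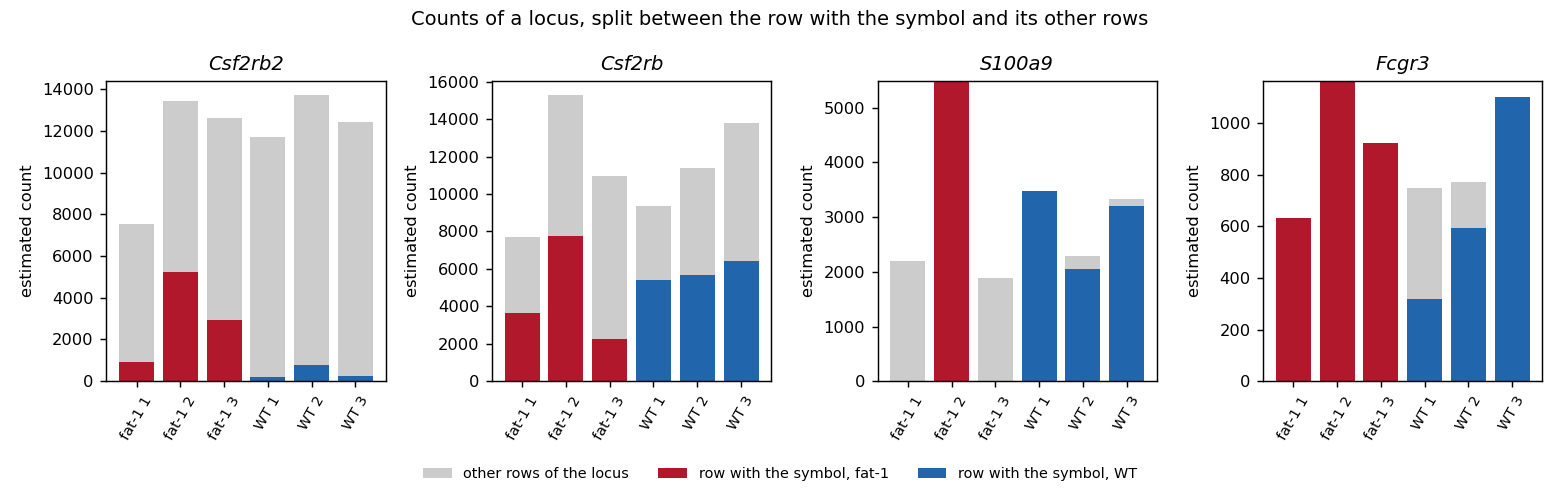
Estimated counts of 4 loci in each sample, divided between the row with the gene symbol (red in *fat-1*, blue in WT) and the other rows of the locus (grey). In *Csf2rb2* the coloured part is 927 to 5237 counts in *fat-1* and 199 to 775 in WT while the totals overlap, and in *S100a9* the symbol row is empty in *fat-1* samples 1 and 3.

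Ligands and partners of the listed receptors were read from separate gene lists. *Csf1*, the ligand of CSF1R, was at 629, 1112 and 1296 CPM in *fat-1* and at 802, 1181 and 937 CPM in WT (log2 fold change 0.056, SE 0.28). Per kilobase the mean level of *Csf1* was 188 CPM and that of *Csf1r* was 1.14 CPM. Of 9 ligand loci tested, 0 passed an adjusted *p* of 0.05 and 1 passed the unadjusted threshold. This was *Il3*, one of the ligands of the beta chains, which was at 0.0332, 0.0653 and 0.0962 CPM in *fat-1* and at 0.266, 0.0927 and 0.141 CPM in WT (log2 fold change -1.35, SE 0.55, unadjusted *p* = 0.0479 by edgeR). The WT and *fat-1* values of *Il3* overlapped, and WT sample 1 stood well above the rest. All values of *Il3* were near the limit of measurement, since 1 count is worth 0.00441 to 0.00486 CPM. None of 13 partners, such as *Syk* and *Axl*, passed the unadjusted threshold by edgeR, and their median log2 fold change was 0.065.

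Among 13 other macrophage and monocyte loci, 11 other dendritic cell loci, 11 other neutrophil loci and 8 mast cell and eosinophil loci, 0 passed the unadjusted threshold. Their median log2 fold changes were 0.017, -0.052, 0.056 and -0.31, beside 0.0018 for all loci. *Ccr7*, the chemokine receptor by which dendritic cells and lymphocytes enter lymph nodes, had the same 3 highest samples as *Irf8*, at 111, 247 and 162 CPM in *fat-1* and at 118, 131 and 272 CPM in WT. Mast cell and eosinophil genes summed to 15.2, 31.1 and 44.1 CPM in *fat-1* and to 58.5, 35.2 and 39.7 CPM in WT, and *fat-1* sample 2 and WT sample 3 were not their highest samples. Of 5 lymph node stroma loci, 1 passed the unadjusted threshold, *Ccl19*, at 0.232, 1.40 and 1.00 CPM in *fat-1* and at 0.112, 0.163 and 0.316 CPM in WT (log2 fold change 2.16, SE 0.71, unadjusted *p* = 0.0214 by edgeR, adjusted *p* = 1.00). The genotypes overlapped for *Ccl19*, since *fat-1* sample 1 lay below WT sample 3, and its WT levels were low. Of 6 B cell loci, 6 T and NK cell loci, 4 loci of leukocytes in general, 7 luminal, 7 basal, 6 fibroblast, 5 endothelial, 5 adipocyte and 3 red blood cell loci, 0 passed the unadjusted threshold. The median log2 fold change was 0.89 over the 5 lymph node stroma loci, of which 4 were above 0, and 0.16 over the 6 B cell loci, of which 6 were above 0. For the other lists of this paragraph without a median above, it lay between -0.28 (fibroblast) and 0.21 (red blood cell).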

How the data were processed

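RNA of 3 *fat-1* and 3 WT pools was sequenced as paired-end reads of 100 bases. The authors used HISAT2 for mapping to GRCm38 and StringTie for transcript assembly, and deposited 1 table of estimated counts per row, not normalized. Tool versions, annotation, use of strand and how coverage became counts are not given in the sources used here, so overlapping genes are uncertain. All values were whole, so rounding changed nothing, and 0 columns lacked a sample.

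Counts were summed per assembled locus. Both loci and rows were tested in edgeR 4.0.16 (R 4.3.3) by its quasi-likelihood method (newer fit, filterByExpr, TMM, genotype as the only term, Benjamini–Hochberg adjustment, threshold 0.05), tested on simulated data first. The biological coefficient of variation was 0.302 for loci and 0.451 for rows. The simulated data had less spread than the rows, so they do not show how the row tests perform. Shares of a locus were compared by two-sided exact permutation tests. DESeq2 1.42.0, the exact test, the older fit, other scalings and filters, a replicate block and leaving out each sample were the alternatives. Levels per kilobase use the merged exons of GENCODE for GRCm38, and promoters are from RefSeq on GRCm38.p6. Merged exons can be longer than the transcripts present, so the size of a ratio between genes depends on this choice, but its change between samples does not. *Ccl19* and *Ccl21a* each have more than 1 row, and the row with more counts was used. Plots were made with matplotlib 3.10.9 in Python 3.11.15.

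The listed genes and the other gene lists were chosen with earlier results of these data known. Of the list of partners, 1 gene is not reported here. By rule, values in all 6 samples are given for 30 listed genes and any other with an unadjusted *p* at or under 0.05, and other listed genes by their range. Of each other list the genes with the smallest *p* under 0.05 were named. *Csf1*, *Ccr7* and genes named as examples without a value were chosen after their values were seen. Leaving *Irf8*, *Spi1*, *Cybb* and *Ncf1* out of the sum was also not planned.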

Additional observations from a re-analysis of the deposited data

How the results depend on the processing

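Depth limits what can be detected for *Ly6g*, with 19 to 69 counts per sample, and for *Trem2*, with 26 to 73. Counts of *Siglech* (46 to 164) and *Clec9a* (68 to 152) were also low. For the other genes counting error was not separated from the spread between pools. No log2 fold change of a listed locus passed an adjusted *p* of 0.05 under any alternative run. Among all loci, 579 passed the unadjusted threshold when every locus with any count was tested, and 1136 rows did, with more features tested in each case. Scaling to the summed listed genes gave 123 loci and 359 rows, shifted the median of all loci to -0.067, and left 22.8% of the unadjusted calls higher in *fat-1* in place of 42.0%. By edgeR's exact test 6 loci and 32 rows passed the adjusted threshold, and by DESeq2's Wald test 8 loci and 93 rows did, 1 of them a listed gene, *Csf2rb2*. The cause of these differences between tests was not tested. Without each sample in turn, 0 to 1 loci and 0 to 2 rows passed the adjusted threshold, 204 to 542 loci passed the unadjusted one, and so did 0 to 3 listed loci and 1 to 4 listed rows.

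Several listed genes with values near 0 changed sign. Under upper quartile scaling *Csf2rb* was at 0.011. Scaling to the summed listed genes makes the total of the rows with their symbols equal in every sample, but not that of their locus sums. It moves all genes of a sample alike, so sign changes near 0 follow from its construction and say nothing of single genes. It moved the median of the listed loci from 0.025 to -0.13, and *Fcgr1* was at -0.23, *Fcgr3* at -0.050, *Fcer1g* at -0.080, *Tyrobp* at -0.11, *C1qb* at -0.16, *Flt3* at -0.088, *Zbtb46* at -0.062, *Batf3* at -0.083, *S100a9* at -0.12, *Csf3r* at -0.14 and the *Cd68* row at -0.12. Leaving out each sample in turn gave log2 fold changes on both sides of 0 for many listed genes, with -0.27 to 0.027 for *Csf1r*, -0.31 to 0.44 for *Fcgr1*, -0.14 to 0.33 for *Fcgr3*, -0.36 to 0.044 for *Sirpa*, -0.53 to 0.19 for *Trem2*, -0.20 to 0.61 for *Mrc1*, -0.0090 to 1.41 for *Timd4* and -0.50 to 0.080 for *Folr2*. In the same way the values ran from -0.12 to 0.40 for *Fcer1g*, -0.29 to 0.31 for *Tyrobp*, -0.42 to 0.20 for *C1qa*, -0.25 to 0.35 for *C1qb*, -0.27 to 0.33 for *C1qc*, -0.32 to 0.017 for *Lyz2*, -0.33 to 0.34 for *Flt3* and -0.060 to 0.14 for *Zbtb46*. They ran from -0.12 to 0.33 for *Batf3*, -0.080 to 0.53 for *Clec9a*, -0.046 to 1.15 for *Siglech*, -0.62 to 0.18 for *S100a8*, -0.54 to 0.34 for *S100a9*, -0.25 to 0.42 for *Csf3r*, -0.64 to 0.18 for *Ly6g* and -0.16 to 0.82 for *Ly6c2*. The values also ran from -0.18 to 0.62 for *Spi1*, -0.0085 to 0.95 for *Cybb*, -0.097 to 0.63 for *Ncf1*, -0.27 to 0.22 for *Csf2rb*, -0.28 to 0.083 for *Csf2rb2*, -0.23 to 0.43 for *Cd68* (row) and -0.21 to 0.77 for *Ly6c2* (row). Other listed loci kept their sign while their size moved, with -0.63 to -0.044 for *Adgre1*, -0.74 to -0.20 for *Cd163*, 0.072 to 2.08 for *Marco*, -0.43 to -0.16 for *Mertk*, -0.79 to -0.26 for *Clec10a*, -0.30 to -0.0092 for *Lyz1*, 0.14 to 0.65 for *Aif1* and 0.082 to 1.22 for *Irf8*.

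The replicate numbers of the labels were also used as a replicate block. Deviations from the genotype means correlated at 0.80, -0.16 and 0.13 between samples 1, 2 and 3 of the genotypes, and not every sample correlated best with its own number, so the numbers were not taken as pairs. With the replicate block 376 loci passed the unadjusted threshold in place of 274 and 784 rows in place of 678, with 0 past the adjusted one in either case. The block gave *Fcgr1* -0.18, *Tyrobp* -0.0086, *C1qb* -0.054, *S100a9* -0.065 and *Csf3r* -0.043, and changed no call of a listed gene.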
